A study of Mus musculus with 4 samples.

Results

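Duplications in Rpap3 and Irak4 stood out in these lung exomes by large read shares at depths of 10 or more reads. Below that depth, large shares were common among all records. The duplications of both loci were taken as all records that start between 97686377 and 97686431 (Rpap3) or between 94563065 and 94563088 (Irak4) on chromosome 15 of GRCm38. The windows held 13 of the 1404 records of both tables. Rpap3 had 4 records in the wild type (WT) and 7 in FEN1 A159V, and Irak4 had 1 in each. The loci were chosen by their duplication read shares in these 4 libraries, so the shares are given as a description, with no test. Records that overlap at a locus are not replicates of each other.

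The study sequenced exomes of mouse lung, with 1 library in each of 4 groups: WT normal lung, WT lung tumor, normal lung of mice heterozygous for A159V in FEN1, and lung tumor of such heterozygotes. FEN1 is the flap endonuclease that removes the displaced ends of Okazaki fragments during lagging-strand synthesis. The labels give neither age, strain nor tumor inducer, and whether a tumor and the normal lung of its genotype are from a single mouse is not stated. Each genotype has 1 table of tandem duplications with a tumor and a normal column, each holding a genotype field and the reads for the reference and for the duplication. The median depth over all records was 1 to 2 reads in each library. No record lay in Fen1, and duplications cannot show whether the A159V change was present.

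RPAP3 is a scaffold of the R2TP complex, which works with the chaperone HSP90 to assemble RNA polymerase II and other large complexes. IRAK4 is the kinase that MyD88 recruits when interleukin-1 or Toll-like receptors are engaged, and it passes the signal on to other IRAK proteins. A tandem duplication places a second copy of a DNA segment directly behind the first. Stretches that already repeat can gain or lose whole units when a polymerase slips or when repeats recombine. Arrays of such units often differ in copy number between individuals and strains.

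The Rpap3 records lie at chr15:97686377-97686431, on the plus strand of GRCm38. RefSeq places Rpap3 on the minus strand, from 97675097 to 97705822, and the window is 19391 bp from the start of the gene. No other annotated gene covers it. The table used gives gene spans only, so exon, intron and untranslated region were not told apart. The reference, joined from the reference alleles of the records, already repeats itself there: a 16 bp stretch, in capitals, occurs again 33 bp further on. It is shown because every duplication of this locus involves these repeats.
Rpap3 reference window: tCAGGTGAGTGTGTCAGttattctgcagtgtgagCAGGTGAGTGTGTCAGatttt

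Of the 11 Rpap3 records, 7 were exact copies of a 33 bp segment with no bases between the copies. Although they start at different bases, they spell only 2 sequences. The better supported allele, called major below, came from the copy of 97686399 to 97686431 and was recorded identically in both tables. The other, called minor, was recorded at 3 starts in 5 records. Its segment can be shifted by up to 16 bp along the direct repeat without changing the result, so those 5 records spell a single allele. The homology field of all members reads 0 bp all the same. The alleles differ at 2 bases, shown in capitals, which are T50A and A52T from minor to major, counted from 1 at the base after 97686377.
Major allele, window with 1 added unit: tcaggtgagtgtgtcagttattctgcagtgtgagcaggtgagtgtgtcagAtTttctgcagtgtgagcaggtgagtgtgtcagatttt
Minor allele, window with 1 added unit: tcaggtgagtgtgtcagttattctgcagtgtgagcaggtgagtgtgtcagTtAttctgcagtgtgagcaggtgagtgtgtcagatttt

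These are the alleles as the tables spell them. Whether each supporting read carries the bases that set the alleles apart cannot be told from the tables.

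**Figure D1:**
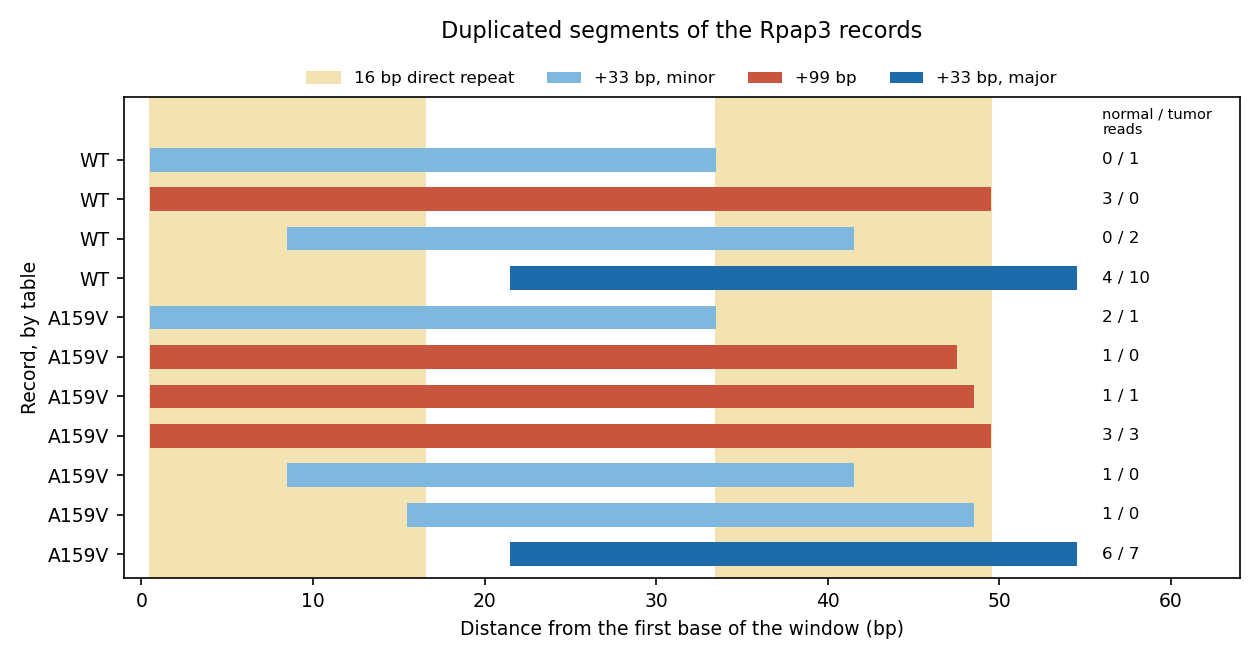
Duplicated segment of each of the 11 Rpap3 records (bars), placed by distance in bp from the first base of the window, with the 16 bp direct repeats shaded and the supporting reads in normal lung and tumor at the right. The 5 bars of the minor allele start inside the left repeat, and the 2 bars of the major allele start between the repeats and carry the most reads in each table.

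The other 4 Rpap3 records were not plain copies. They duplicated 47 to 49 bp and had 50 to 52 intervening bases, yet in all 4 the inserted bases came to 99 bp, which is 3 units of 33 bp. Each held a block of 8 or 9 undetermined bases (n). Apart from those, 3 of the 4 matched an array with 3 added units of the minor type at every base compared (145 or 146 bases each). The fourth, the A159V record with the 47 bp segment, differed at 2 of 145. The bases compared include the 55 bp reference window and the copied segment, which match the array by construction. Only the 50 to 52 intervening bases, less the undetermined ones, could differ. The inserted bases of 3 of these records are printed, with the mismatches in capitals, to show the array.
WT, 49 bp segment: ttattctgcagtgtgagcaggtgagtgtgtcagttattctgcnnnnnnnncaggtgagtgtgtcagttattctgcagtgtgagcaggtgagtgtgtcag
A159V, 49 bp segment: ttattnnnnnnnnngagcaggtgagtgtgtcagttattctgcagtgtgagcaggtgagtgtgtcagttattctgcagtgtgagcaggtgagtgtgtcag
A159V, 47 bp segment: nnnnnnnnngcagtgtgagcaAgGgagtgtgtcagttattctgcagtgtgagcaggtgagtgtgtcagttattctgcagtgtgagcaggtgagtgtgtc

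The Irak4 record lies at chr15:94563065-94563088, 19452 bp into a gene that RefSeq places on the plus strand from 94543613 to 94568317. Both tables recorded the same 23 bp segment with 67 intervening bases, so neither was an exact copy. The inserted bases again came to whole units, 90 bp or 3 units of 30 bp. In the WT record the 3 units are identical, and the A159V record equals the WT one at 78 of the 82 bases where it is determined, with 8 bases undetermined. The last 23 inserted bases are the copied segment and are the same in both by definition. Only the 67 intervening bases, less the 8 undetermined, could differ. The unit holds an 8 bp stretch that occurs again within it, 19 bp further on, marked in capitals. In the inserted bases, capitals mark the differences A29T, A37G, C47A and T48A (WT to A159V, counted from 1 at the first inserted base).
Irak4 segment: gaacctcaactactggttagtaa
Irak4 unit: CTGGTTAGaacctcaactaCTGGTTAGtaa
Irak4 inserted bases, WT: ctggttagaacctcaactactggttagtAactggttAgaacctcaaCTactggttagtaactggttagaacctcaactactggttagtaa
Irak4 inserted bases, A159V: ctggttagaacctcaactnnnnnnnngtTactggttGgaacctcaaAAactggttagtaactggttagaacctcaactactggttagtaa

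Whole units were thus common to both loci. Inserted bases were scored as an array when they formed 2 or more units of equal length and repeated at that distance with at least 90% identity. By that measure 5 of the 6 members with intervening bases were arrays. The exception, the A159V Irak4 record, had 88.1% identity over 67 positions. Over both tables, 14.4% of the 1246 records with intervening bases were arrays. Outside simple repeats, where all members lie, 18.6% of 932 such records were. The score includes the copied segment. In the Rpap3 arrays that segment already repeats at 33 bp in the reference, so part of the identity was fixed beforehand. The members come from 2 places only, so 5 of 6 is a description of those places.

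Every inserted length was a multiple of 3 in the 13 members (33, 90 or 99 bp), compared with 41.7% of all records. The members come from 2 places with units of 33 and 30 bp, so this count describes those places only. A length that is a multiple of 3 keeps a reading frame only where the site is coding, which was not resolved. Read on its gene strand, the Rpap3 reference window had a stop codon in each of the 3 frames, before any duplication. The Irak4 segment with its 90 inserted bases had stop codons in 2 frames and none in the other frame. None of the 13 lay in a simple repeat by the criteria used (a homopolymer, or a unit of at most 6 bp in several copies).

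At Rpap3 the major allele was seen in all 4 libraries. It had 4 of 21 reads in WT normal lung (19%, exact Clopper-Pearson 95% interval 5.45 to 41.9). In the WT tumor it had 10 of 26 reads (38.5%, 20.2 to 59.4). The A159V normal lung had 6 of 19 reads for it (31.6%, 12.6 to 56.6), and the A159V tumor 7 of 23 (30.4%, 13.2 to 52.9). WT normal lung was thus lowest and the WT tumor highest, with intervals that overlapped between all 4 libraries. The intervals describe counting error alone, because without molecular identifiers several reads may stem from 1 DNA molecule, and with 1 library per group no difference has a replicate check.

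The minor allele had fewer reads. It had no read in WT normal lung, where the deepest record had 14 reads, which allows a share of up to 21.4%. It had 3 reads in the WT tumor (1 and 2 in its 2 records), 4 in A159V normal lung and 1 in the A159V tumor. The array of 3 added units had 3 of 18 reads in WT normal lung (16.7%, 3.58 to 41.4) and none of 15 in the WT tumor, which allows up to 20%. Summed over its 3 A159V records it had 5 reads in normal lung and 4 in the tumor, beside 11 and 15 reference reads. Each of these alleles thus went without a read in 1 library, which does not show that it was absent there.

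Each library therefore held reads of more than 2 classes at Rpap3, with the reference as 1 of them. These classes need not be separate alleles. The minor copy and the array join their units by the same bases, so a read across 1 join would fit either. The major and minor copies differ at only 2 bases, which a read may not carry. Whether a library held more than the 2 alleles of a diploid cell can therefore not be told. With the reference counted, WT normal lung and WT tumor had 3 classes each, and A159V normal lung and tumor had 4 each. All records with 3 added units were counted as 1 class. That class includes the A159V record with the 47 bp segment, which differed from the array at 2 bases. Of the 47 duplication reads at the locus, the major allele took 27 (57.4%).

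**Figure D2:**
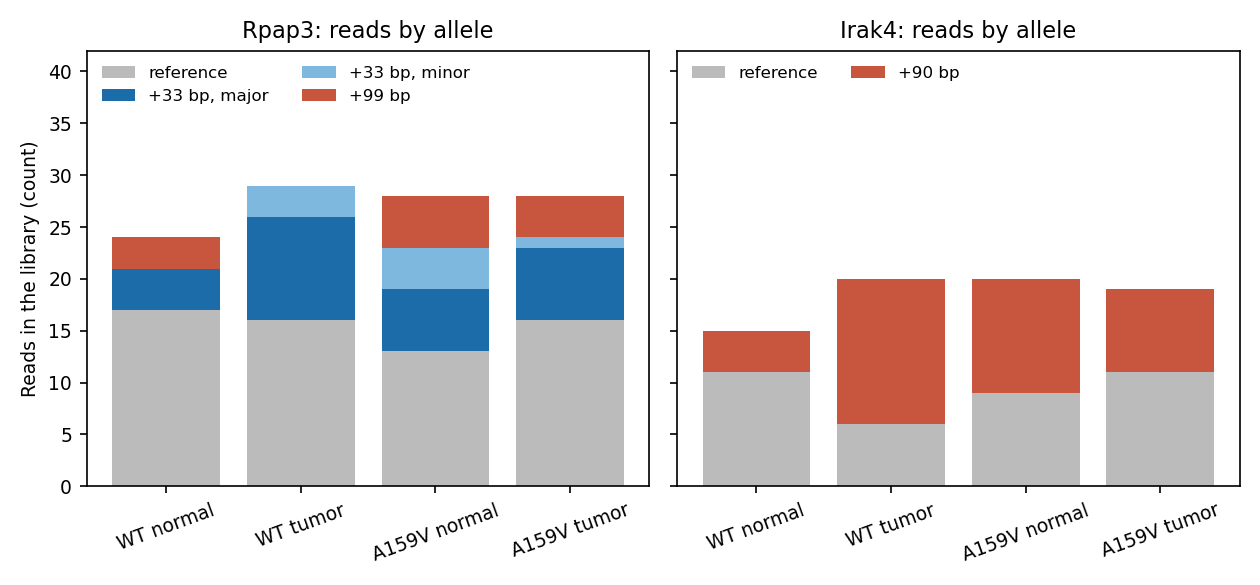
Reads per library (counts, stacked) for the reference allele, taken from the record with most reference reads, and for each duplicated allele at Rpap3 (left) and Irak4 (right). The Rpap3 bars reach 24 to 29 reads and hold 2 or 3 duplicated classes, which need not be separate alleles. The Irak4 bars reach 15 to 20 reads with a single class.

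Summed over all records, the Rpap3 duplications took 7 of 24 reads in WT normal lung (29.2%, 12.6 to 51.1). The sum was 13 of 29 in the WT tumor (44.8%, 26.4 to 64.3). The A159V normal lung had 15 of 28 (53.6%, 33.9 to 72.5), and the A159V tumor 12 of 28 (42.9%, 24.5 to 62.8). The sum sets all duplication reads against the largest number of reference reads at any record of the locus, and a read that supported more than 1 record would count more than once. The order differed from that of the major allele alone: A159V normal lung was highest when all records were summed, and WT normal lung stayed lowest. In A159V normal lung the major allele's 31.6% lay below the interval of the summed share.

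At Irak4 the WT record had 4 of 15 reads in WT normal lung (26.7%, 7.79 to 55.1). In the WT tumor it had 14 of 20 reads (70%, 45.7 to 88.1). The A159V record, whose inserted bases differ from those of the WT at 4 of 82 positions, had 11 of 20 reads in normal lung (55%, 31.5 to 76.9) and 8 of 19 in the tumor (42.1%, 20.3 to 66.5). All 4 libraries thus had reads for a 90 bp insertion behind the same segment, with the highest share in the WT tumor and the lowest in WT normal lung. The intervals of these outermost libraries, too, overlapped, between 45.7% and 55.1%.

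**Figure D3:**
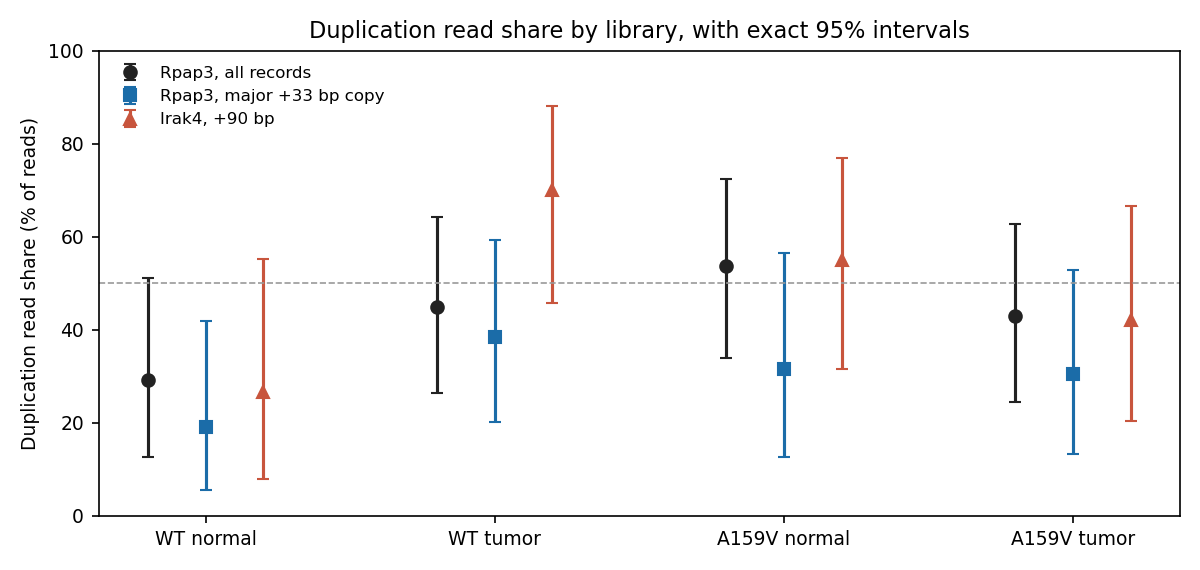
Duplication read share (% of reads) in each library for all Rpap3 records summed, for the major Rpap3 allele and for Irak4, with exact 95% intervals as bars and a dashed line at 50%. The intervals of the summed Rpap3 share and of Irak4 cross 50% in all 4 libraries, and that of the major Rpap3 allele does so in 3 of 4, WT normal lung being the exception. The summed share pools several records, so 50% is a guide for it only if these stem from a single variant.

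The next question was whether the duplications look inherited or acquired. A variant on 1 of the 2 chromosomes in every cell gives a share near 50% if reads of both alleles are recorded equally well. This was not measured for insertions of these lengths, so 50% is a rough guide only. A variant acquired in a tumor is expected to be absent from normal tissue. The major Rpap3 allele, identical in both tables, had reads in both normal lungs and in both tumors, so it was seen neither in tumor alone nor in a single genotype alone. At Irak4 each table's own record had reads in normal lung and tumor. The Irak4 records share segment and inserted length but not all inserted bases, so whether both genotypes carry the same Irak4 variant cannot be told. Intervals held 50% in all 4 libraries for Irak4 and for the summed Rpap3 share, and in 3 of 4 for the major Rpap3 allele. The summed share pools the major, minor and 3-unit records. The guide of 50% applies to it only if these stem from a single variant, which was not tested. The share of the major Rpap3 allele itself was 19% to 38.5%, below 50% in all 4 libraries. Intervals held 50% in 1 of 4 libraries for the minor Rpap3 allele and in 1 of 4 for the Rpap3 array of 3 added units, A159V normal lung in each case. At these depths such intervals also hold many other shares. The minor Rpap3 allele had reads in 3 libraries and its 3-unit array in 3, and both had reads in A159V normal lung. The labels state neither the strain of the mice nor how they were related. At either locus, a variant that the mice inherited and a change of the same form that arose in each of them cannot be told apart from these read counts.

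Identity between tables was frequent at Rpap3. Of its records, 3 variants were the same in both tables, the major allele and the minor allele at starts 97686377 and 97686385, which makes 6 of the 13 members. All 3 are exact copies, whose bases follow from start and length. Records with undetermined bases counted as identical only where these bases were placed alike. Over all records, 2.71% had an identical variant in the other table. Reads in both libraries of a genotype were found for 7 of the 13 members, against 6.13% of all records. Exact copies made up 7 of the 13, all in Rpap3, against 11.3% of all records. The loci were picked with their recurrence known, and nothing is read from these counts.

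The genotype field gave the duplication to 2 of the 5 WT members and 3 of the 8 A159V members, where 0.505% of all WT records and 0.654% of all A159V records had it. Irak4 was heterozygous (0/1) in all 4 libraries. The major Rpap3 allele was 0/1 in the WT tumor and in both A159V libraries and 0/0 in WT normal lung, in spite of its 4 reads there. The A159V 3-unit record with the 49 bp segment was 0/1 in normal lung (3 of 14 reads, 21.4%) and 0/0 in the tumor (3 of 18 reads, 16.7%), so an equal number of reads got different calls. The other members were 0/0 throughout.

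Across both tables this field followed depth and share closely. Of 2808 record and library entries, 11 were given the duplication, and the same 11 were those with at least 10 reads and a share of at least 20%. The lowest share given it was 20%, 2 of 10 reads in Mib1. The highest share at such depth that was not given it was the major Rpap3 allele in WT normal lung, at 19%. Below 10 reads, 963 entries reached 20% and none was given the duplication. The 0/0 of Rpap3 in WT normal lung therefore sits just under the share at which other entries were called.

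A share of at least 20% at 10 or more reads was reached by 2 of the 5 WT members and 3 of the 8 A159V members, beside 1.65% of the 243 WT records and 2.01% of the 199 A159V records that had such depth. The rule rests on these values, so they only place the loci. Outside both loci, 447 entries had that depth and a duplication read, with a median share of 1.96%, and 3 of them reached 20%.

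**Figure D4:**
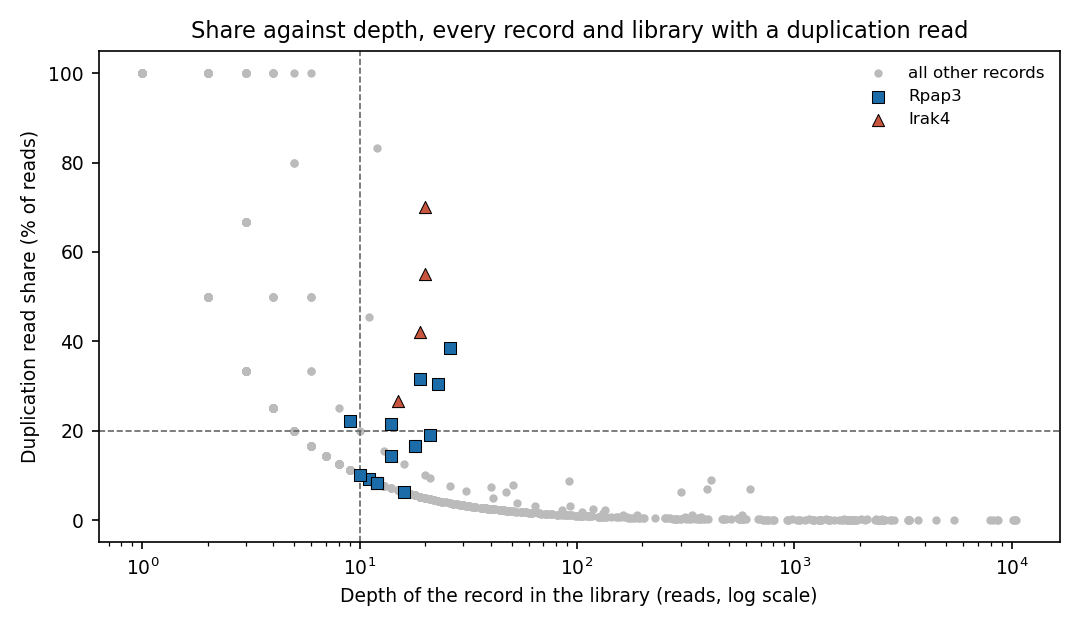
Duplication read share (%) against depth (reads, log scale) for every record and library with a duplication read, with Rpap3 as squares, Irak4 as triangles and dashed lines at 10 reads and 20%. The Irak4 points and the upper Rpap3 points lie above most other points right of the line at 10 reads, where 3 other points reach 20%.

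Those 3 entries belonged to 3 records in 2 genes. Slc6a13, a transporter of the neurotransmitter GABA, had 10 of 12 reads in the WT tumor (83.3%, 51.6 to 97.9), with the field at 1/1, and 2 of 2 in WT normal lung. Slc6a13 had duplication reads in A159V too, below 10 reads of depth. Summed over 2 records there, they were 4 of 4 reads in normal lung and 1 of 2 in the tumor. Mib1, a ubiquitin ligase of Notch signalling, had 2 of 10 reads in the WT tumor (20%, 2.52 to 55.6) and none of 10 in WT normal lung, which allows up to 30%. In A159V it had 5 of 11 reads in the tumor (45.5%, 16.7 to 76.6) and 1 of 6 in normal lung. These Mib1 counts and the WT counts of Slc6a13 are of a single record each, and both genes had further records. Summed over its records, Mib1 had 3 of 11 reads in the WT tumor and 0 of 10 in WT normal lung. In A159V the Mib1 sum was 6 of 13 in the tumor and 2 of 7 in normal lung. The WT sum of Slc6a13 was 15 of 17 in the tumor and 2 of 2 in normal lung. The Mib1 insertion came to 3 units of 36 bp, so it shared the number of added units with Irak4 and the Rpap3 arrays. The Slc6a13 record inserted 90 bp that did not pass as an array. None of these 3 records reached 20 reads in a library, a depth that Irak4 and Rpap3 reached in 2 or more libraries each.

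Irak4 and Rpap3 lie 3.12 Mb apart, and no other record lay between them. The nearest record outside the windows was 649 kb from Irak4 and 1129 kb from Rpap3, and neither gene held a further record.

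The other genes of both pathways were looked up too. Of 26 genes for R2TP, RNA polymerase assembly and HSP90 partners in the RefSeq table, 2 held a record: Rpap3 and Tti2, which encodes a partner in the assembly of phosphatidylinositol 3-kinase-related kinases. The Tti2 record had 1 of 22 reads in WT normal lung (4.55%, 0.115 to 22.8) and none of 36 in the WT tumor, which allows up to 8.33%. Of 40 genes for interleukin-1 and Toll-like receptors and the proteins that relay their signals, among them Myd88, Traf6, Irak1 and the Toll-like receptor genes, only Irak4 held a record. Over all protein-coding genes, 2.71% of 21900 held a record. Lists of this size would hold about as few at that share, so nothing is read from the counts, and how many of these genes were deep enough to show one was not measured.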

How the data were processed

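Exome libraries of 4 lung samples were compared through 2 deposited tables, 1 per genotype. Per the file headers, the authors called tandem duplications with Pindel on GRCm38, and each library column holds a genotype and deposited counts of reads for the reference and the duplicated allele. Per the submitters' processing notes, BWA was used and mm10 is named beside GRCm38. Neither headers nor labels state versions or filters. Columns were matched to samples through the names in the sample descriptions, and every such column was used.

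Shares are duplication reads over duplication plus reference reads, with exact Clopper-Pearson 95% intervals (scipy 1.17.1). A limit beside 0 reads is 3 reads of the depth. Alleles were written out by placing the inserted bases into the reference joined from the records, skipping undetermined bases in comparisons. Array scoring needed at least 20 compared positions and allowed up to 6 units, and was tested on simulated data. A simple repeat was a run of 8 or more equal bases, or 3 or more copies of a 2 to 6 bp unit that spanned 12 bp or more. Genes came from RefSeq spans of GRCm38.p6, and strands from its promoter table. Figures used matplotlib 3.10.9.

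With 1 library per group, no test between groups was made. Outside both loci, genes were named where the genotype field gave the duplication or a share of at least 20% was reached at 10 or more reads, and genes of the 2 pathway lists where a record lay in their span. The members, lists and this rule were chosen with earlier results of these data known. Alternatives for how reads and records are counted are given in the closing section.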

Additional observations from a re-analysis of the deposited data

Results flagged for a closer look

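From normal lung to tumor, the share of duplication reads differed in opposite directions in the 2 genotypes for Irak4 and for the summed Rpap3 records. For the major Rpap3 allele, which is part of that sum, it did so in sign only. At Irak4 the tumor was 43.3 percentage points above normal lung in the WT and differed by -12.9 points in A159V. For the summed Rpap3 share the differences were 15.7 points in the WT and -10.7 points in A159V, and for the major Rpap3 allele 19.4 and -1.14 points. The last value, from 6 of 19 reads in normal lung and 7 of 23 in the tumor, is almost no difference. The Rpap3 array of 3 added units went the same way in both, with -16.7 points in the WT and -10.2 points in A159V. No difference between the genotypes was tested, each value rests on 1 library per group, and the intervals of tumor and normal lung overlapped in each of these comparisons.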

How the results depend on the processing

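Of 38 share values recomputed with exact copies only, without records that hold undetermined bases, with the fewest reference reads, with the best supported record only or with merged records, 37 stayed within the 95% interval of the value reported. The exception was the summed Rpap3 share of A159V normal lung, which was 31.6% with the best supported record only. Many of these values could not move. Irak4 has 1 record per genotype, so each of its alternatives repeats the reported share. Merging records of the same sequence likewise left the major Rpap3 allele unchanged, because it has 1 record per genotype. The count of 37 is therefore no measure of stability. The merge of both exact Rpap3 alleles was chosen after seeing the data. The number of Rpap3 records, 11 as deposited, was 4 when records that spell the same sequence were counted once and 7 with at least 2 supporting reads over both libraries. The number of records outside both loci with a high share, 3 as reported, was 0 at a depth of at least 20 reads and 14 at a share of at least 10%. Irak4 has no exact copy and its A159V record holds undetermined bases, so those alternatives gave no value there. Depths of 9 to 26 reads per record limit every share. No paired analysis was possible because each group has 1 library.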
